A study of Mus musculus with 1024 samples.

Results

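The elastic fibre genes analysed here were 10 of the 24422 genes in the table of read counts from single cells of the mouse aorta. They were chosen by name as the main structural parts of the fibre and the enzymes that join them, namely Eln, Fbln5, Fbln2, Emilin1, Fbn1, Mfap4, Mfap5, Ltbp4, Lox and Loxl1, and not by a threshold on a measured value. Each was followed by gate, genotype and preparation in wells that held 20000 or more gene counts and 500 or more genes, which were 784 of 1024. The labels gave every well the strain Amotl2flow/flow / Cdh5-RREert / ROSA26-EYFP, the aorta as tissue and an age of 3 months, and a genotype of WT or KO. In the KO mice Amotl2 was deleted by a tamoxifen-induced Cre under the promoter of Cdh5, which is active in the endothelium and not in smooth muscle or fibroblasts. Whether the WT mice carried the Cre or received tamoxifen was not given in the labels. The luminal side of the aorta was digested, Cd45+ cells were depleted with beads, and viable cells were sorted as Cd31+Cd45-, labelled endothelial, or as Cd31-Cd45-, labelled double negative and taken as controls. The labels numbered 2 sorts per genotype, called preparations here, and named no mouse. The paper reports more mice than sorts for each genotype, so each preparation was taken as a pool of aortas, which the labels do not state. Cells were summed per genotype, gate and preparation into 8 sums, and n below is a number of such sums.

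Elastic fibres let the wall of a large artery stretch and recoil with each heartbeat. A core of crosslinked elastin, encoded by Eln, is laid down on a scaffold of fibrillin microfibrils, and fibulins and latent TGF-beta binding proteins bring the elastin monomers, the microfibrils and the crosslinking enzymes together. In the aortic wall the fibre proteins are best known as products of smooth muscle cells of the media and fibroblasts of the adventitia, while the endothelium lies on the innermost elastic lamina.

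The KO sums of preparations 1 and 2 held 302 and 89 Cd31+ wells and 40 and 14 Cd31- wells, and the WT sums 235 and 50 Cd31+ wells and 42 and 12 Cd31- wells. The sums ranged from 926398 to 94881185 counts, so the small Cd31- sums of preparation 2 carried the largest counting error. WT and KO cells of preparation 1 lay on separate plates, where plate and genotype cannot be told apart. EYFP, which the Cre switches on, was at 113 and 85.5 counts per 1000000 gene counts (CPM) in the KO Cd31+ sums, at 2.38 and 0.353 CPM in the WT Cd31+ sums and at 0 in the 4 Cd31- sums. Amotl2 was at 45.7 to 94.0 CPM in the Cd31+ sums and at 34.4 to 140.3 CPM in the Cd31- sums, and counts of a whole gene do not show the deleted part. The 10 endothelial markers summed to 14410 to 17020 CPM in the Cd31+ sums and to 24.8 to 1233 CPM in the Cd31- sums. The 8 smooth muscle markers summed to 737 to 1670 CPM in the Cd31+ sums and to 21090 to 53540 CPM in the Cd31- sums. The 8 fibroblast markers summed to 228 to 501 CPM and to 2904 to 31680 CPM, respectively, and the 8 leukocyte markers to at most 4.66 CPM in any sum. The WT Cd31- sum of preparation 1 stood apart in its fibroblast markers, at 31680 CPM against at most 13490 CPM in the other 3 Cd31- sums, and the values of the members without it are given beside the results that turn on it.

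The comparison of the gates, with n = 4 sums in each, asked which cells held the transcripts of each part of the fibre. The parts split between the gates: Fbn1, Mfap4 and Loxl1 were higher in the Cd31- cells, Fbln2 and Ltbp4 were higher in the Cd31+ cells, and Eln, Fbln5, Emilin1, Mfap5 and Lox did not pass the test. Of the 10 members, 5 passed edgeR's quasi-likelihood test at a Benjamini-Hochberg adjusted p below 0.05, beside 19% of the 12729 genes tested. The 3 members higher in Cd31- stood beside 9.25% of all genes called in that direction, and the 2 members lower in Cd31- beside 9.79%. The median of the 10 log2 fold changes was 0.09, and that of all genes tested was -0.15. The 4 Cd31- sums all lay above the 4 Cd31+ sums for 3 members, as for 8.98% of all genes, and all below them for 4 members, Fbln5, Fbln2, Ltbp4 and Lox, as for 17.3% of all genes. Without the WT Cd31- sum of preparation 1 the 5 called members stayed past the threshold in edgeR, at 2.42 for Fbn1, 5.58 for Mfap4, 4.67 for Loxl1, -3.05 for Fbln2 and -1.89 for Ltbp4, with the largest adjusted p, 0.0166, for Mfap4, and Fbln5 and Lox passed it as well. In bulk sums of this kind fewer cells of a type and less RNA per cell cannot be told apart, and the cell classes below were used to separate the Cd31- cells further.

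**Figure D1:**
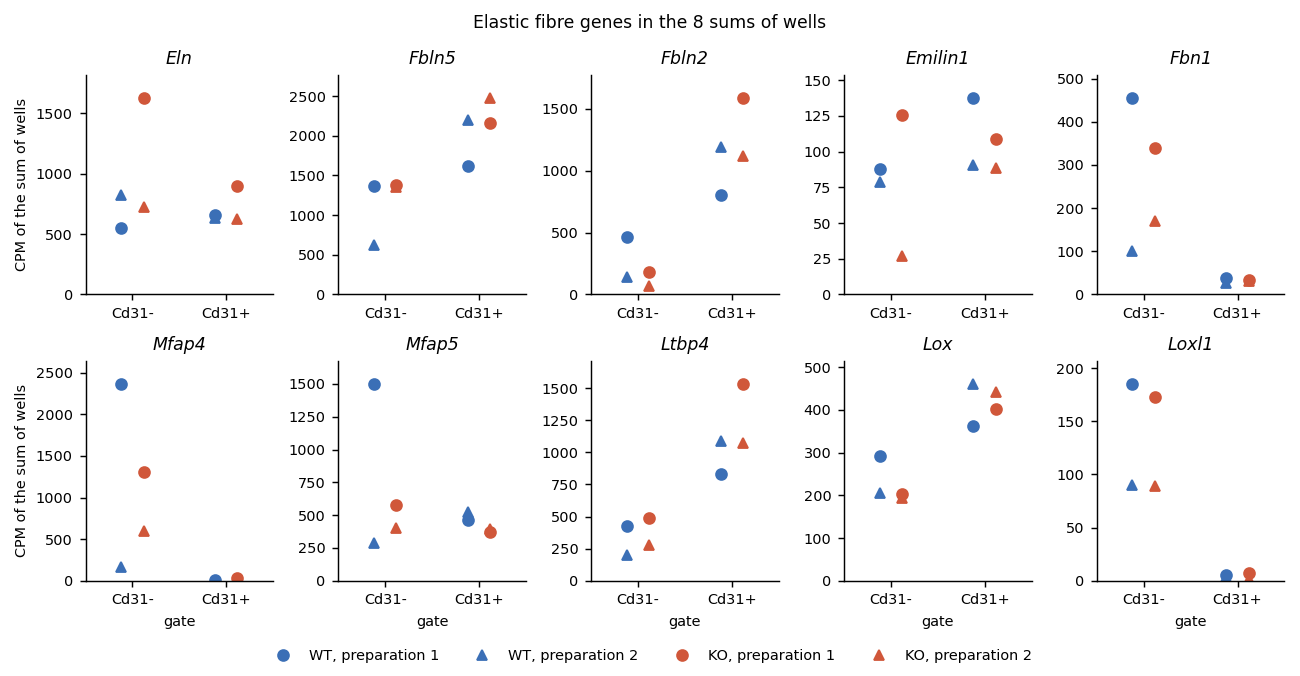
Each panel plots 1 gene, with the gate on the x axis and the CPM of each of the 8 sums of wells on the y axis, which starts at 0. Colour gives the genotype and shape the preparation. Fbn1, Mfap4 and Loxl1 lie higher in all 4 Cd31- sums, and Fbln5, Fbln2, Ltbp4 and Lox lie lower in all 4.

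Among the genes of the elastin core and its assembly, Eln encodes tropoelastin, the soluble monomer of elastin (chromosome 5, 134702593 to 134747323, minus strand, GRCm38). Eln was at 552 and 827 CPM in the WT Cd31- sums of preparations 1 and 2 and at 1627 and 722 CPM in the KO Cd31- sums. In the Cd31+ sums it was at 661 and 636 CPM in WT and at 896 and 626 CPM in KO. The gates overlapped, and Eln was higher in Cd31- cells in 3 of the 4 pools of aortas, with the WT pool of preparation 1 the exception. The log2 fold change of Cd31- against Cd31+ was 0.47 ± 0.31 (SE), with an adjusted p of 0.353 by edgeR's quasi-likelihood test. Elastin mRNA was thus not restricted to the Cd31- cells: a count of Eln was found in 92.3% to 98.9% of the wells of each Cd31+ sum. In the KO Cd31- sum of preparation 1, the highest for Eln, 1 of the 40 wells gave 21.4% of the Eln counts.

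Fbln5 encodes fibulin-5, which binds elastin and integrins and is needed for elastic fibre assembly in mice (chromosome 12, 101746565 to 101819055, minus strand). It was at 1363 and 619 CPM in the WT Cd31- sums and at 1382 and 1356 CPM in the KO Cd31- sums. In the Cd31+ sums it was at 1613 and 2194 CPM in WT and at 2157 and 2474 CPM in KO. All 4 Cd31+ sums lay above all 4 Cd31- sums, but the difference of -0.74 ± 0.30 did not pass edgeR's test (adjusted p = 0.129). Over 17 alternatives of the fit the difference ran from -1.09 to -0.52 and passed in only 2. With the smooth muscle-like Cd31- cells alone it was -0.95 with an adjusted p of 0.00906 by edgeR. Without the WT Cd31- sum of preparation 1 it was -1.09. That fit leaves the sum of preparation 2, the lowest at 619 CPM, as the only WT Cd31- sum.

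Fbln2 encodes fibulin-2, a relative of fibulin-5 found in basement membranes and around elastic fibres (chromosome 6, 91212455 to 91272540, plus strand). It was at 466 and 137.6 CPM in the WT Cd31- sums and at 178 and 65.8 CPM in the KO Cd31- sums, against 804 and 1191 CPM in the WT Cd31+ sums and 1587 and 1123 CPM in the KO Cd31+ sums. All 4 Cd31- sums lay below all 4 Cd31+ sums, and the difference of -2.48 ± 0.46 on the log2 scale passed edgeR's test (adjusted p = 0.00658). A count was found in 96.6% to 100% of the wells of each Cd31+ sum and in 14.3% to 61.9% of the wells of each Cd31- sum. With wells of at least 100000 counts alone the difference was -2.52 and no longer passed the test (adjusted p = 0.191).

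Emilin1 encodes emilin-1, a glycoprotein at the border of elastin and microfibrils (chromosome 5, 30913402 to 30921277, plus strand). It was at 88.2 and 78.9 CPM in the WT Cd31- sums, at 125.5 and 27.0 CPM in the KO Cd31- sums, at 137.5 and 90.6 CPM in the WT Cd31+ sums and at 109 and 88.5 CPM in the KO Cd31+ sums. The gates overlapped, and the difference was -0.29 ± 0.43 (edgeR adjusted p = 0.707).

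Of the microfibril genes, Fbn1 encodes fibrillin-1, the main protein of the microfibril and the gene mutated in Marfan syndrome (chromosome 2, 125300594 to 125507993, minus strand). It was at 455 and 101 CPM in the WT Cd31- sums and at 339 and 169.5 CPM in the KO Cd31- sums, and at no more than 37.1 CPM in any Cd31+ sum. The difference of 3.16 ± 0.49 passed edgeR's test (adjusted p = 0.00284), and Fbn1 was higher in Cd31- cells by 3.93 to 12.3 times within the 4 pools.

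Mfap4 encodes a microfibril-associated glycoprotein that binds elastin and fibrillin (chromosome 11, 61485431 to 61488900, plus strand). It was at 2360 and 169 CPM in the WT Cd31- sums and at 1307 and 599 CPM in the KO Cd31- sums. In the Cd31+ sums it was at 9.86 and 1.24 CPM in WT and at 27.9 CPM and 0 in KO, where a count of 0 allows up to 0.354 CPM. The difference of 7.06 ± 1.54 had an adjusted p of 0.0137 by edgeR, and 0.0644 without the WT Cd31+ sum of preparation 2, where it was 6.65. The few Mfap4 counts of the Cd31+ gate lay almost wholly outside the endothelial cells: 14 smooth muscle-like wells gave 62.6% of them, 2 fibroblast-like wells 37.1%, and the 660 endothelial wells 0.295%, which was 9 counts.

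Mfap5 encodes a second microfibril-associated glycoprotein, known as MAGP-2 (chromosome 6, 122505845 to 122529290, plus strand). It was at 1497 and 287 CPM in the WT Cd31- sums and at 575 and 403 CPM in the KO Cd31- sums, against 462 and 525 CPM in WT and 368 and 394 CPM in KO in the Cd31+ sums. The WT Cd31- sum of preparation 1 was the highest and that of preparation 2 the lowest of all 8, and the gates overlapped (0.72 ± 0.45, edgeR adjusted p = 0.327). This value rested on the Cd31- sums of WT. It was 1.08 with an adjusted p of 0.0105 without the WT Cd31- sum of preparation 2, it was -0.11 (adjusted p = 0.792) without that of preparation 1, and with the smooth muscle-like cells alone it was -0.85 (adjusted p = 0.0688).

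Ltbp4 encodes a latent TGF-beta binding protein that interacts with fibulin-5 in elastic fibre assembly (chromosome 7, 27305136 to 27337692, minus strand). It was at 426 and 203 CPM in the WT Cd31- sums and at 490.1 and 276 CPM in the KO Cd31- sums, against 832 and 1087 CPM in WT and 1530 and 1077 CPM in KO in the Cd31+ sums. Ltbp4 was lower in Cd31- cells in all 4 pools, at 0.187 to 0.512 of the Cd31+ level, and the log2 fold change was -1.57 ± 0.32 (edgeR adjusted p = 0.0108). Over all Cd31+ wells it was also the most widely detected member, with a count in 98.7% to 100% of the wells of each sum, and in the Cd31- sums a count was found in 91.7% to 100% of the wells.

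The crosslinking enzymes behaved differently from each other. Lox encodes lysyl oxidase and Loxl1 its relative, and both are secreted amine oxidases that act on lysines of elastin. Lox was at 292 and 204 CPM in the WT Cd31- sums and at 202 and 193 CPM in the KO Cd31- sums, against 361 and 459.5 CPM in WT and 401 and 442 CPM in KO in the Cd31+ sums. The gates did not overlap, but the difference of -0.80 ± 0.25 just missed the threshold in edgeR (adjusted p = 0.0546) and passed it in DESeq2 (adjusted p = 0.031). Over 17 alternatives of the fit it ran from -1.15 to -0.69 and passed in only 3. Besides DESeq2, it passed in edgeR with the smooth muscle-like cells alone (-1.15, adjusted p = 0.00311). The other was the fit without the WT Cd31- sum of preparation 1, which leaves 1 WT Cd31- sum. Loxl1 (chromosome 9, 58287738 to 58313186, minus strand) was at 185 and 90.1 CPM in the WT Cd31- sums and at 173 and 89.6 CPM in the KO Cd31- sums, against 5.71 and 3.18 CPM in WT and 7.19 and 2.01 CPM in KO in the Cd31+ sums. Its log2 fold change was 4.99 ± 0.54 (edgeR adjusted p = 0.000495), and within the pools it was 24.04 to 44.6 times higher in Cd31- cells. Eln, Fbn1, Mfap4 and Lox overlap a gene on the other strand, and reads of the 2 strands cannot be told apart where the counting did not use strand, which the sources used here did not state.

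**Figure D2:**
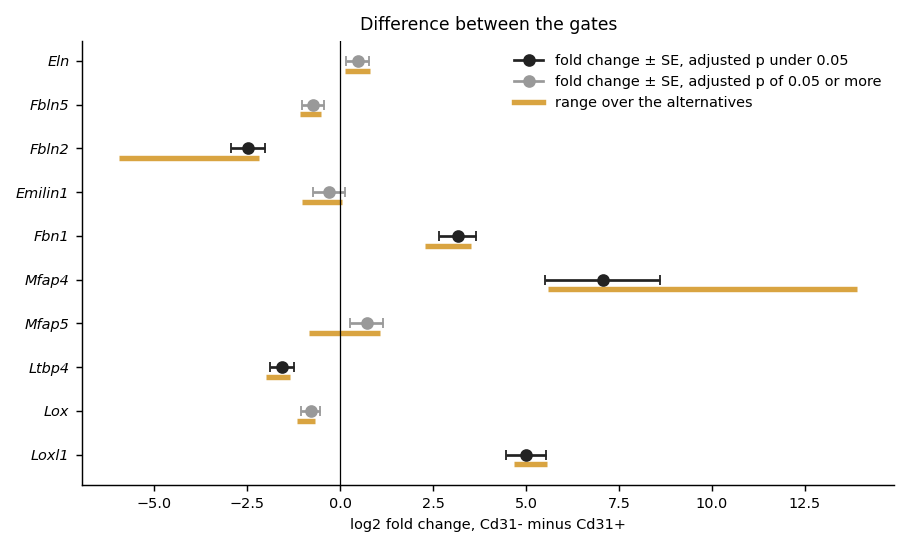
Points give the log2 fold change of each member between the gates (x axis, Cd31- minus Cd31+) with its SE, black where edgeR's adjusted p was under 0.05 and grey otherwise. The bar under each point spans the value over the 17 alternatives of the fit, and it stays on 1 side of 0 for every member but Emilin1 and Mfap5.

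RefSeq's promoter windows of GRCm38.p6 held 5 of the 10 members in 8 windows, and 2 of these windows touched no exon in GENCODE M21. These 2, of Fbln5 and Ltbp4, are shown for that reason. Both genes were higher in all 4 Cd31+ sums, as was Fbln2, whose window overlapped an exon. A link between the windows and the levels was not tested. Each is the 250 bases before a RefSeq start, 5′ to 3′ on the strand of the gene, with every GC box (GGGCGG or its complement CCGCCC, overlapping matches included) in capitals. The Fbln5 window is chr12:101819120-101819369 (minus strand) and the Ltbp4 window chr7:27333664-27333913 (minus strand), the latter lying 4029 bases inside the gene as annotated in GENCODE.
Fbln5: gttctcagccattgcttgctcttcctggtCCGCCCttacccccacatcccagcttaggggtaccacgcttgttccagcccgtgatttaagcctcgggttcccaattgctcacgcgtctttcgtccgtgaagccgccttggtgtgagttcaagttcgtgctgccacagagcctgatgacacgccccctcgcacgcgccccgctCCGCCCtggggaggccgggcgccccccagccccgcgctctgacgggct
Ltbp4: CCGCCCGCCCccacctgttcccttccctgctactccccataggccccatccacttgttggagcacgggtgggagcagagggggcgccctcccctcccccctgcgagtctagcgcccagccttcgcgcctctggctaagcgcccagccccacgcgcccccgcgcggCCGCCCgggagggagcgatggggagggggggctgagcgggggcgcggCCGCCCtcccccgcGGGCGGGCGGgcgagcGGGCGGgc
The Fbln5 window held 2 GC boxes at 65.2% G and C, and the Ltbp4 window 7 at 79.2%, beside a median of 52.4% G and C over all 32851 windows, of which 32.7% held a GC box. Neither held a TATA box (TATAAA or its complement TTTATA), which 12.4% of all windows held, or a CArG box, the motif of serum response factor, which 1.47% held.

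To see which cells within the gates carried each gene, wells were clustered without the 10 members and 18 other elastic fibre genes, and clusters were named from fixed markers. This gave 661 endothelial wells in 5 clusters, 84 smooth muscle-like wells led by Acta2, Myl9 and Myh11, and 39 fibroblast-like wells led by Dcn, Tgfbi and Fbln1. Of the pericyte markers, Rgs5 had a count in 60.7%, Abcc9 in 84.5% and Kcnj8 in 34.5% of the smooth muscle-like wells, and Higd1b in none. Pericytes were not told apart from smooth muscle cells in this class. The Cd31- gate held 70 smooth muscle-like, 37 fibroblast-like and 1 endothelial well, and the Cd31+ gate 660 endothelial, 14 smooth muscle-like and 2 fibroblast-like wells. The classes come from the same counts, so the levels below are a description with no test. The pattern was that fibroblast-like cells were highest for the microfibril genes Fbn1, Mfap4 and Mfap5 and for Loxl1, smooth muscle-like cells for Eln, and endothelial cells for Fbln2 and Ltbp4. Fbln5 and Lox were also highest in endothelial cells, but their pools overlapped those of the fibroblast-like cells.

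Eln was at 1474 CPM in the smooth muscle-like wells, at 792 CPM in the endothelial wells and at 481 CPM in the fibroblast-like wells. By pool it ranged from 766 to 1717 CPM in the smooth muscle-like and from 629 to 884.5 CPM in the endothelial wells, so these ranges overlapped. Within each of the 4 pools, however, the smooth muscle-like level, given by preparation below, was above that of the Cd31+ sum. The lowest, 766 CPM in the KO pool of preparation 2, stood beside 626 CPM in the Cd31+ sum of that pool. The 2 fibroblast-like pools of over 5 wells were far apart, the WT pool at 222 CPM and the KO pool at 926 CPM, the latter above the endothelial range. The order of the fibroblast-like and endothelial classes thus turned with the pool. Fbln5 was at 2043, 1702 and 1257 CPM in endothelial, fibroblast-like and smooth muscle-like wells, and a count was found in 94.9%, 97.4% and 97.6% of them. By pool it ran from 1623 to 2490 CPM in endothelial wells and from 1567 to 1945 CPM in the 2 fibroblast-like pools, which overlapped, and from 630 to 1397 CPM in smooth muscle-like wells, which lay below both. Fbln2 divided the classes most sharply among the core genes. It was at 1352 CPM in endothelial and 692 CPM in fibroblast-like wells, and at 107 CPM in smooth muscle-like wells, of which 1 well gave 47.7%. In the 70 smooth muscle-like wells of the Cd31- gate it was at 26.2 CPM with a count in 15.7% of wells, and in the 14 of the Cd31+ gate, which also held Pecam1 at 2456 CPM, at 407 CPM with a count in 85.7%. Emilin1 was near level, at 114, 111 and 92.8 CPM in endothelial, smooth muscle-like and fibroblast-like wells.

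Fbn1 was at 671 CPM in fibroblast-like, 166.5 CPM in smooth muscle-like and 31.0 CPM in endothelial wells. The share of wells with an Fbn1 count was 94.9% (95% exact binomial interval 82.7% to 99.4%), 73.8% (63.1% to 82.8%) and 33.9% (30.3% to 37.6%), respectively. Mfap4 was at 3603 CPM in fibroblast-like and 479.5 CPM in smooth muscle-like wells, with a count in 87.2% (72.6% to 95.7%) and 76.2% (65.7% to 84.8%) of them. In endothelial wells it was at 0.0595 CPM with a count in 0.756% (0.246% to 1.76%), or 5 of 661 wells, which cannot be told apart from stray reads. Loxl1 was at 233.5, 123 and 3.92 CPM in fibroblast-like, smooth muscle-like and endothelial wells and had a count in 87.2%, 84.5% and 5.14% of them. These intervals cover counting error only, and with every well thinned to 20000 counts the endothelial shares were 20.7% for Fbn1, 0.151% for Mfap4 and 2.27% for Loxl1.

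Mfap5 was at 1967 CPM in fibroblast-like wells, with a count in all 39 (91.0% to 100%), at 408 CPM in endothelial wells and at 236 CPM in smooth muscle-like wells. Ltbp4 was at 1310 CPM in endothelial, 594 CPM in fibroblast-like and 385 CPM in smooth muscle-like wells, with a count in 99.4%, 100% and 97.6% of them. Lox was at 397 CPM in endothelial, 376 CPM in fibroblast-like and 208 CPM in smooth muscle-like wells. By pool, the endothelial level of Lox ran from 364 to 459 CPM and the smooth muscle-like level from 152 to 225 CPM, with no overlap, while the 2 fibroblast-like pools of over 5 wells were at 361 and 401 CPM.

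**Figure D3:**
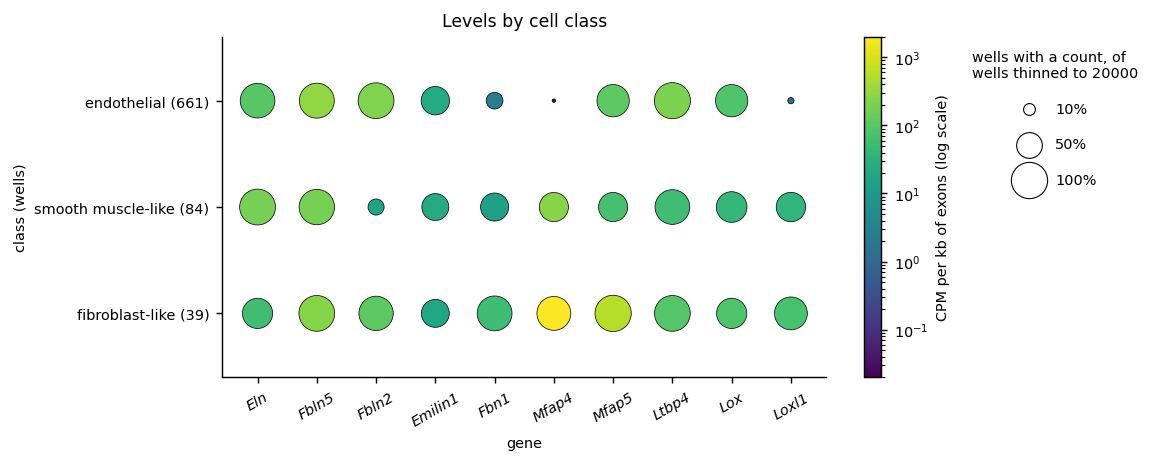
Members are on the x axis and the 3 cell classes on the y axis, with the number of wells. Colour gives the level in CPM per kb of exons on a log scale and the area of the circle the share of wells with a count after thinning to 20000 counts. Mfap4 runs from 1875 CPM per kb in fibroblast-like wells to 0.0310 in endothelial wells, while Emilin1 stays between 18.8 and 23.05.

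Levels of different genes were set side by side per kb of exons. In endothelial wells the order was Fbln5 at 296 CPM per kb, Fbln2 at 212, Ltbp4 at 203, Mfap5 at 114, Eln at 97.8, Lox at 83.1, Emilin1 at 23.05, Fbn1 at 2.55, Loxl1 at 1.19 and Mfap4 at 0.0310 CPM per kb. Neighbours overlapped by pool from Fbln5 down to Lox, and Lox, Emilin1, Fbn1, Loxl1 and Mfap4 stood apart from each other. In smooth muscle-like wells Mfap4 (249.5 CPM per kb), Eln (182) and Fbln5 (182) led and overlapped by pool, and did not overlap the next, Mfap5 (65.9 CPM per kb). Each later neighbour overlapped, down to Fbn1 at 13.7 CPM per kb. In fibroblast-like wells Mfap4 led at 1875 CPM per kb, followed by Mfap5 at 548 and Fbln5 at 246, with no overlap between these in the 2 pools of over 5 wells, and Emilin1 was last at 18.8 CPM per kb. The length is that of all annotated exons joined, so a gene with many unused exons is understated.

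The members seldom occurred all together in a cell. After thinning to 20000 counts, the median number of members with a count was 6 of 10 in endothelial wells (range 0 to 9), 7 in smooth muscle-like wells (2 to 10) and 9 in fibroblast-like wells (5 to 10). All 10 were found in 7 of 39 fibroblast-like wells, 1 of 84 smooth muscle-like wells and 0 of 661 endothelial wells, which allows a share of up to 0.454%. The 10 members summed to 10410 CPM in fibroblast-like, 6450 CPM in endothelial and 4548 CPM in smooth muscle-like wells.

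Across the wells of a class, Spearman correlations between members were weak in smooth muscle-like wells, at most 0.308 (Mfap4 with Mfap5, 84 wells). In fibroblast-like wells Eln and Mfap4 (rho = 0.630), Fbn1 and Mfap5 (0.601) and Mfap4 and Lox (0.516) went together over 39 wells, and Emilin1 and Mfap5 went apart (-0.383). In endothelial wells Eln went with Fbln5 (0.411) and with Ltbp4 (0.371) over 661 wells. These values describe log2(CPM + 1) in wells of shared plates, and depth itself correlated with members by at most 0.317 in any of these classes.

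The endothelial wells were not uniform. They fell into 5 clusters, led by Calcrl and Frzb (248 wells), Gkn3 and Nt5e (201), Cd74 and H2-Aa (155, of which 154 were WT wells of preparation 1), Fabp4 and Lrg1 (34), and Slc6a6 and Ssu2 (23). The Gkn3 cluster was highest for Fbln5, Eln and Lox, the Calcrl cluster was highest for Fbln2, and the Fabp4 cluster was low for most members that endothelial cells carried. Fbln5 was at 3414 CPM in the Gkn3 cluster, with 2429 to 3781 CPM over its 4 pools, and at 1391 CPM in the Calcrl cluster, with 1324 to 1886 CPM, so these ranges did not overlap. Lox was at 534 CPM (467 to 589) in the Gkn3 cluster and at 345 CPM (293 to 440) in the Calcrl cluster, again without overlap, and Mfap5 was lower in the Gkn3 cluster, at 332.5 CPM (288 to 377.5), than in the Calcrl cluster, at 472 CPM (437 to 677). Eln was at 1004 CPM (773 to 1077) and 763.5 CPM (433.9 to 829.3), and these ranges overlapped.

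In the Fabp4 cluster, whose leading genes also included Aqp1 and Cd36, known from capillary endothelium, Eln was at 109 CPM and Mfap5 at 6.85 CPM, with Eln at 95.4 and 121.5 CPM and Mfap5 at 0 and 12.3 CPM in its 2 pools of over 5 wells. After thinning to 20000 counts, 41.2% of its wells had an Eln count and 2.94% an Mfap5 count, against 93.5% and 91.1% in the Calcrl cluster. Lox was at 147 CPM, Fbln2 at 438 CPM and Fbln5 at 681 CPM there, while Fbn1 was at 109 CPM, against 14.5 to 51.95 CPM in the other endothelial clusters. Its 2 pools, at 62.7 and 172 CPM, overlapped those of the Slc6a6 cluster, at 37.85 and 64.8 CPM. Ltbp4 was at 471 CPM with a count in 91.2% of thinned wells. The Slc6a6 cluster was also low for Eln (298 CPM), Mfap5 (51.5 CPM) and Lox (174 CPM) but not for Fbln5 (2196 CPM) or Ltbp4 (1632 CPM). Mfap4 was at no more than 0.189 CPM and Loxl1 at no more than 4.23 CPM over the wells of any endothelial cluster.

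**Figure D4:**
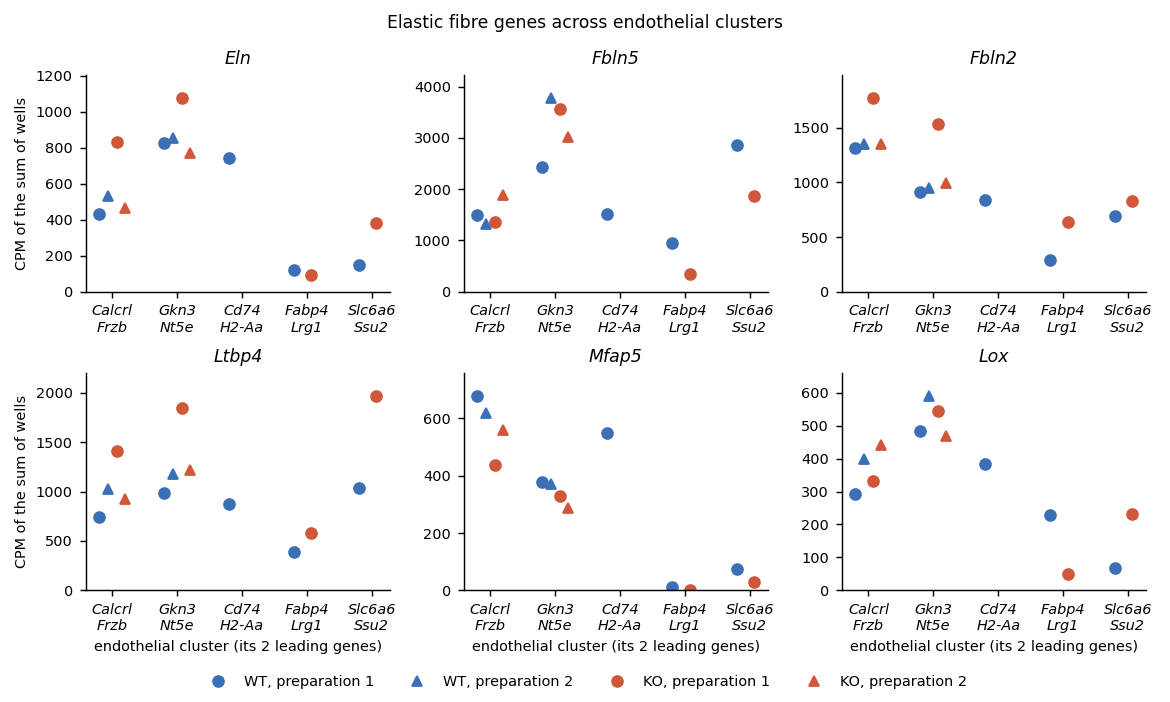
The x axis gives the 5 endothelial clusters by their leading genes and the y axis the CPM of each pool with at least 5 wells in the cluster, with colour for the genotype and shape for the preparation. Mfap5 lies at 0 and 12.3 CPM in the Fabp4 cluster and Fbln5 at 2429 to 3781 CPM in the Gkn3 cluster.

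The next comparison asked whether the elastic fibre genes differed between WT and KO aortas. No member passed the quasi-likelihood test of edgeR after Benjamini-Hochberg adjustment in the Cd31- cells, where 0 of the 12729 genes tested (0.0%) were called. An unadjusted p below 0.05 was found for 1130 genes, and DESeq2 called 189. In simulated counts every gene was given the common coefficient of variation of these sums, 0.616. Where 200 genes differed between the genotypes by 3 in log2, edgeR found 0 of them and DESeq2 77 with 29 false calls. With 2 sums per group edgeR thus did not detect changes of this size in genes of that spread. The spread of each single member was not simulated. Of the 10 members 3 had a log2 fold change above 0, and their median was -0.10, beside 0 for all genes. The values were 0.79 ± 0.44 for Eln (adjusted p = 0.651), -1.28 ± 0.63 for Fbln2 (adjusted p = 0.617), 0.50 ± 0.42 for Fbln5 (adjusted p = 0.802) and -0.84 ± 0.64 for Mfap5 (adjusted p = 0.772) in edgeR, and between -0.38 and 0.31 for the other 6. These values turned on single sums: with 1 sum left out Mfap4 ran from -1.29 to 2.52, Fbn1 from -0.81 to 1.36, Emilin1 from -1.59 to 0.58, Loxl1 from -0.60 to 0.58, Ltbp4 from -0.16 to 0.94 and Lox from -0.53 to -0.02, and none of them passed the test.

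The preparations disagreed in direction for 5 of the 10 members. The share of all genes that did so was not computed, so this count cannot be read as particular to the members. The ratio of KO to WT in the Cd31- cells was 2.95 in preparation 1 and 0.873 in preparation 2 for Eln, 0.384 and 1.40 for Mfap5, 0.554 and 3.54 for Mfap4, 0.746 and 1.68 for Fbn1, and 1.42 and 0.342 for Emilin1. It lay on the same side of 1 in both preparations for Fbln2 (0.382 and 0.479), Lox (0.692 and 0.945), Loxl1 (0.935 and 0.995), Fbln5 (1.01 and 2.19) and Ltbp4 (1.15 and 1.36).

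The make-up of the Cd31- sums moved with the genotype in preparation 1. Fibroblast-like wells were 26 of 42 in WT, or 61.9% (95% exact binomial interval 45.6% to 76.4%), and 9 of 40 in KO, or 22.5% (10.8% to 38.5%), and in preparation 2 they were 1 of 12 in WT and 1 of 14 in KO. Dcn, a fibroblast marker, was at 20170 CPM in the WT and 5854 CPM in the KO sum of preparation 1 and at 1458 and 3842 CPM in those of preparation 2. The sum with most fibroblast-like wells was the highest of the 4 for Fbln2, Fbn1, Mfap4, Mfap5, Lox and Loxl1 and the lowest for Eln. Loxl1 was close, at 185 CPM against 173 CPM in the KO sum of preparation 1. The share of all genes highest or lowest in that WT sum was not computed. How far the make-up of the sums enters the differences between genotypes was not tested beyond a fit with the smooth muscle-like Cd31- cells alone. In that fit Fbln2 was at 0.85 (adjusted p = 0.807) in place of -1.28, Mfap5 at -0.54 (adjusted p = 0.706), Eln at 0.49 (adjusted p = 0.689) and Fbln5 at 0.68 (adjusted p = 0.443) by edgeR. Without the WT Cd31- sum of preparation 1, which leaves 1 WT sum, they were at -0.14 for Fbln2 (adjusted p = 1), 0.80 for Mfap5 (adjusted p = 0.413), 0.53 for Eln (adjusted p = 0.71) and 1.18 for Fbln5 (adjusted p = 0.222). Mfap4 was then at 2.52 (adjusted p = 0.673) and Fbn1 at 1.36 (adjusted p = 0.35) by edgeR, in place of -0.38 and -0.11.

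**Figure D5:**
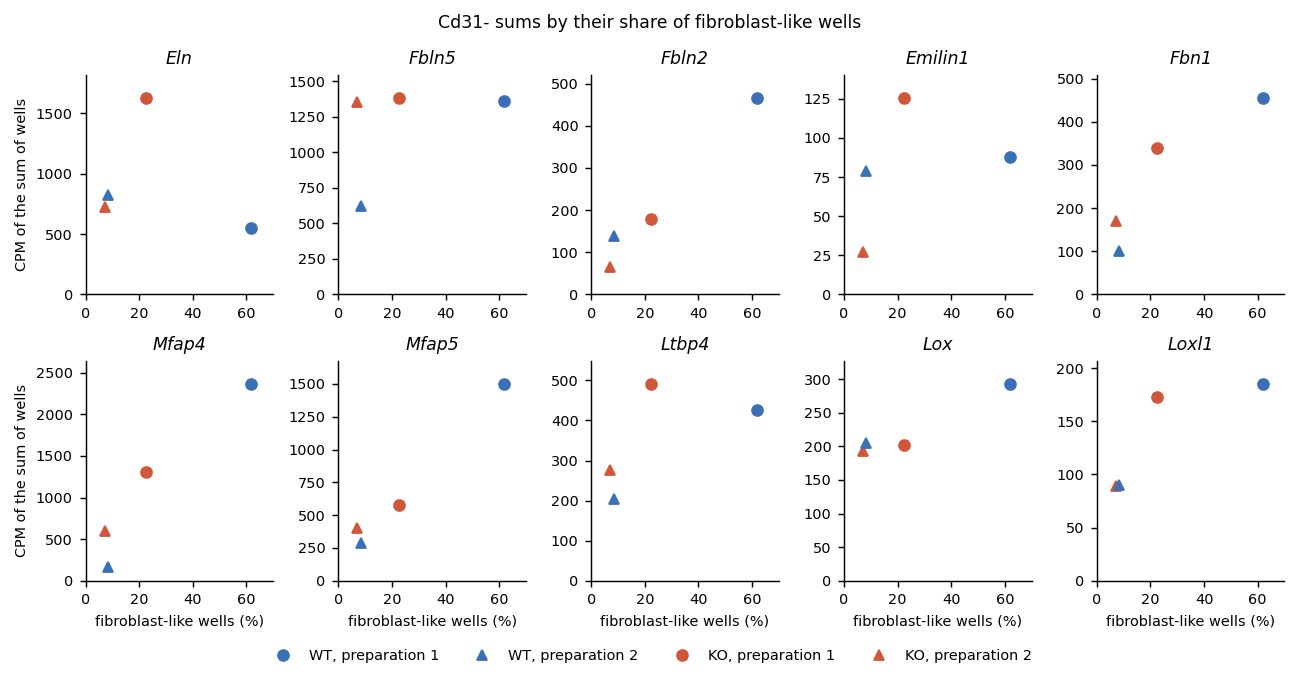
Each panel plots 1 gene in the 4 Cd31- sums, with the percentage of fibroblast-like wells in the sum on the x axis and the CPM of the sum on the y axis, which starts at 0. The WT sum of preparation 1, at 61.9%, is the highest for Mfap4 and Mfap5 and the lowest for Eln.

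By class, Eln was at 1717 CPM in the 37 KO and 1114 CPM in the 21 WT smooth muscle-like wells of preparation 1, and at 766 and 837.5 CPM in the 15 KO and 11 WT wells of preparation 2, so its direction differed between the preparations here too. Fbln5 was higher in KO smooth muscle-like wells in both, at 1397 against 995 CPM and at 1296 against 630 CPM. In the fibroblast-like wells of preparation 1, Eln was at 926 CPM in 11 KO and 222 CPM in 26 WT wells, Mfap4 at 4076 and 3369 CPM, and Mfap5 at 1567 and 2206 CPM. With 1 fibroblast-like well per genotype in preparation 2, these have no replicate check.

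In the Cd31+ cells, where the deletion takes place, no member differed between KO and WT by edgeR. Of all 12729 genes 0 (0.0%) were called, 191 had an unadjusted p below 0.05, and DESeq2 called 25. The ratio of KO to WT was 1.36 in preparation 1 and 0.985 in preparation 2 for Eln, 1.98 and 0.943 for Fbln2 and 1.84 and 0.991 for Ltbp4, so that the higher KO levels of preparation 1, where genotype and plate cannot be told apart, were not seen in preparation 2. In preparation 1, 154 of the 230 WT endothelial wells of the Cd31+ gate were in the Cd74 cluster, which was at 839 CPM for Fbln2 and 875 CPM for Ltbp4. Within the Calcrl cluster of preparation 1, KO and WT were at 1775 and 1313 CPM for Fbln2 and at 1405 and 745 CPM for Ltbp4. Within the Gkn3 cluster they were at 1534 and 910 CPM and at 1842 and 987 CPM, with 23 WT wells. The part of the clusters in the ratios was not tested. Fbln5 was higher in KO in both (1.34 and 1.13) and Mfap5 lower in both (0.797 and 0.7515), with log2 fold changes of 0.30 ± 0.42 and -0.36 ± 0.63 and adjusted p-values of 1 in edgeR. The difference between the gates in the effect of genotype was called for 0 of 12729 genes (0.0%) by edgeR, with 657 at an unadjusted p below 0.05 and 46 called by DESeq2, and for no member. The largest value among the members was that of Fbln2, at -1.73 ± 0.88 (adjusted p = 0.972).

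Over the 108 Cd31- wells, the 3 genes most like each member in Spearman correlation of log2(CPM + 1), among 6925 genes with a count in at least 20% of these wells, separated the members again. Those of Mfap5 were Pi16 (0.782), Cygb (0.7495) and Pdgfra (0.746), and those of Fbln2 were Cd34 (0.815), Add3 (0.804) and Ly6c1 (0.798). Those of Fbn1 were Vcan (0.528), Pi16 (0.488) and Nid1 (0.4855), those of Mfap4 were Fbln1 (0.571), Nfix (0.567) and Vipr2 (0.563), and those of Ltbp4 were Col14a1 (0.501), C1s1 (0.498) and Igfbp4 (0.481). Pi16 and Pdgfra are fibroblast markers and also among the markers that named the class. Those of Eln were Lrrfip1 (0.590), Actn4 (0.583), an actin crosslinker, and Npnt (0.5775), an extracellular matrix protein, and Eln went against Fbln2 (-0.434) over the same wells. The likest genes reached 0.454 for Fbln5 (Sema3b, then Wisp2 and Pcsk5), 0.413 for Lox (Aebp1, Ctsh and Fam198b), 0.383 for Loxl1 (Mfap4, Akt2 and Vipr2) and 0.305 for Emilin1 (Arfgef2, Fkbp10 and Man2c1). The wells share plates and preparations, and these are descriptions.

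Other genes of the fibre were taken from a list of 18, of which 16 were tested. Of these, 9 were higher in Cd31- cells by edgeR, beside the 9.25% of all genes given above, and 0 were lower, and their median log2 fold change was 2.54. Ltbp1, a latent TGF-beta binding protein, was at 8.21 to 33.9 CPM in the Cd31+ sums and at 717 to 967 CPM in the Cd31- sums (6.00 ± 0.45, adjusted p = 0.000154). Its level was 1116 CPM in smooth muscle-like wells, 332 CPM in fibroblast-like and 4.38 CPM in endothelial wells, whereas that of Ltbp4 was highest in endothelial wells. Fbln1 (fibulin-1) was at 2462 CPM in fibroblast-like, 0.825 CPM in smooth muscle-like and 5.60 CPM in endothelial wells and was higher in Cd31- by 6.27 ± 0.91 (adjusted p = 0.00206). Efemp2, which encodes fibulin-4, was higher by 2.84 ± 0.41 (adjusted p = 0.00187), and Thsd4, which encodes a fibrillin-binding ADAMTS-like protein, by 5.44 ± 1.06 (adjusted p = 0.00829), with 296 CPM in smooth muscle-like wells and 0.145 CPM in fibroblast-like wells. The other 5 were Adamtsl2, Emilin2, Loxl2, Loxl3 and Mfap2. Emilin2, at no more than 0.59 CPM in any Cd31+ sum, and Adamtsl2, at no more than 1.33 CPM, entered the test through the Cd31- sums. They could thus only be called higher there. Adamtsl2 was also at 0 in both Cd31- sums of preparation 2, and its adjusted p by edgeR was 0.0491. Fbn2, which encodes the fibrillin best known from development, had no count in any class. Biglycan, encoded by Bgn, was at 7282 to 7985 CPM in all 3 classes.

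Genes whose products degrade elastin were also followed, since their balance with synthesis sets the fibre content of the wall. Of 8 such genes 5 were tested, and Ctsk (cathepsin K, 6.78 ± 1.23, adjusted p = 0.00587) and Mmp14 (2.23 ± 0.59, adjusted p = 0.0293) were higher in Cd31- cells by edgeR. Ctsk was at 704 CPM in fibroblast-like wells, 6.19 CPM in smooth muscle-like and 1.68 CPM in endothelial wells, and Mmp2 at 1438, 15.9 and 224 CPM. Mmp9, Mmp12 and Ctss, which leukocytes are known for, were at 0 in the 3 classes of these cells, from which Cd45+ cells had been removed. Of the protease inhibitors, Serpine2 was higher in Cd31- cells (6.01 ± 0.74, adjusted p = 0.000914 by edgeR), at 2122 CPM in smooth muscle-like, 74.0 CPM in fibroblast-like and 15.3 CPM in endothelial wells. No gene of these lists was called between WT and KO in either gate by edgeR.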

How the data were processed

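Reads of Smart-seq2 libraries, which carry no molecular identifiers, were aligned by the authors with STAR 2.7.7a to GRCm38 with spike-in and EYFP sequences added, cleared of duplicates with Picard 2.22.0 and counted per gene with HTSeq 0.9.1. The values as deposited are raw read counts, whole numbers with no scaling, and 51.9% of them lie on genes. The annotation release and the strand setting are not given in the sources used here. Lines of spike-ins (1.25% of counts) and HTSeq summary lines (46.9%) entered no library size or test.

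Wells were kept as stated in the report, which left 20120 counts in the shallowest, and CPM was computed from counts on genes. Sums were tested with edgeR 4.0.16 (TMM, filterByExpr, glmQLFit and glmQLFTest, 1 fit of 8 sums, 4 residual degrees of freedom, coefficient of variation 0.616), with DESeq2 1.42.0 beside it. The test was checked on simulated data, in which every gene had that same coefficient of variation. Where genes differed between the gates by 1, 2 and 3 in log2, edgeR recovered 0, 26 and 144 of 200 genes among 12729. The false calls were 0, 1 and 7. The members not called between the gates had changes under 1, where a missing call does not show equal levels. P-values measure the spread between preparations only. The 2 gates with the same genotype and sort number were taken to come from the same aortas, which the labels do not state. Deviations of the sums of preparation 1 correlated by 0.043 to 0.139 across groups. No doublet caller was run on sorted single cells. Clustering used Seurat 5.3.0 (2000 variable genes, 30 dimensions, resolution 0.5). Exon lengths and coordinates come from GENCODE M21, where 95.5% of gene symbols were found once. Other software was R 4.3.3 and Python 3.11.15 with scipy 1.17.1, numpy 2.4.6 and pandas 2.3.3. The members and gene lists were chosen with earlier results of these data known. Named genes are the members, the 3 genes most correlated with each, and listed genes that passed a test or led a class. Not every listed gene that passed is reported here. The alternatives were other scaling, no low-count filter, DESeq2, blocks for preparation or pool, each sum left out, deeper or thinned wells and wells by class, of which the fit on smooth muscle-like cells alone and class levels by gate were added after seeing the data.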

Additional observations from a re-analysis of the deposited data

Results flagged for a closer look

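Of the 20 groups of 4 sums (10 members in 2 gates), 3 held a sum whose gap to its nearest neighbour, as a share of the whole range, was above Dixon's 95% critical value of 0.829 for 4 samples. Chance flags about 1 in 20 such groups. Fbln5 in the Cd31- gate was at 619 CPM in the WT sum of preparation 2, where the others lay between 1356 and 1382 CPM. That sum held 12 wells, 1 of which gave 28.9% of its Fbln5 counts. Lox in the Cd31- gate was at 292 CPM in the WT sum of preparation 1, the sum with 61.9% fibroblast-like wells, and between 193 and 204 CPM in the others. Eln in the Cd31+ gate was at 896 CPM in the KO sum of preparation 1, the deepest of all, and between 626 and 661 CPM in the others. The part of depth, plate or make-up in these values was not tested.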

How the results depend on the processing

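Between the gates 2423 genes were called, and with 1 sum left out 1355 to 2542. The sums whose removal lowered the count by over 1.5 times were the 4 Cd31+ sums (KO 1399 and 1355, WT 1496 and 1435 without preparations 1 and 2). In the Cd31- cells 0 genes were called between genotypes, and 0 to 48 with 1 sum left out, of which 48 were called without the WT Cd31- sum of preparation 1 and 1 without that of preparation 2. In the Cd31+ cells the range was 0 to 0, and for the genotype effect between gates 0 to 42, with 42 without the WT Cd31- sum of preparation 1. A lone sum in a group is then assumed to vary like the other groups. Without the low-count filter 218, 100 and 163 genes were called in these 3 comparisons, and with DESeq2 189, 25 and 46. DESeq2 called 3101 genes between the gates. A fit with preparation as a replicate block gave 2181 calls between the gates and 0 in the other comparisons, and a paired fit with a replicate block by aorta pool gave 1779 between the gates, and neither changed the call of a member.

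Fbn1, Ltbp4 and Loxl1 stayed past the threshold between the gates in all 17 alternatives and Fbln2 and Mfap4 in 16, the exceptions being given in the report. Fbln2 ranged from -5.95 to -2.17 on the log2 scale and Mfap4 from 5.58 to 13.9, the latter highest where the Cd31+ wells of other classes were removed. Of 660 values of members under an alternative, 72 changed sign, none of them past the threshold before or after. Between the gates these were 0.04 for Emilin1 without the KO Cd31- sum of preparation 2 and the 2 values of Mfap5 in the report. Of 90 class levels under another choice of wells or clustering, 2 moved beyond the spread between pools, both in smooth muscle-like wells of the Cd31- gate alone (Fbln2 to 26.2 CPM and Lox to 170.3 CPM). Depth limits the shares of low genes most: 42 of 160 shares of wells with a count left their interval on thinning or in deeper wells.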
